A study of Mus musculus with 4 samples.

Results

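The regions described here are TCF1 peaks of Sox13lo γδ thymocytes that overlapped no called peak of either of the other populations mapped in the study. They were chosen by the positions of called peaks, as those Sox13lo peaks on chromosomes 1 to 19 (positions on mm9) that shared not even 1 bp with a peak of the Sox13hi γδ list or of the DP list. The rule kept 2924 of the 10394 autosomal Sox13lo peaks, or 28.1 %, out of 136219 autosomal peaks in the 3 lists together. Because the choice rests on the peak calls themselves, the number, score and width of these peaks are given as a description without a test.

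TCF1, the product of Tcf7, is a high mobility group (HMG) box protein that binds DNA in the minor groove, bends it and recruits either β-catenin or corepressors of the Groucho family. It is induced early by Notch signalling in the thymus and is required both for the commitment of progenitors to the T lineage and for the survival of double-positive cells. SOX13 is another HMG box factor, expressed in a subset of immature γδ thymocytes that is known for giving rise to cells producing interleukin 17. In thymocytes TCF1 is known to bind both at gene starts and at distal enhancers, and it takes part in opening chromatin at T lineage genes.

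Both γδ populations were sorted as γδ+ CD24+ thymocytes, CD24 being a marker of immature cells, from C57BL/6 mice of the genotype TCRbeta KO.Sox13 ECFP KI/+. These animals lack TCRβ, so conventional αβ development is blocked in them, and they carry a cyan fluorescent reporter in 1 Sox13 allele. Cells with high reporter signal formed the Sox13hi population and those with low or no signal the Sox13lo population. DP thymocytes, which carry both CD4 and CD8, came from wild-type C57BL/6 mice, so cell type and genotype cannot be told apart in any difference from the DP list. The sources used here do not give the age or sex of the animals, nor how many were pooled. Each immunoprecipitation used the anti-TCF1 antibody SantaCruz sc-13025 and 17 cycles of amplification. With 1 library per population, replicate error could not be measured and populations could not be compared by a test. An input library of γδ thymocytes was not analysed here. Peak lists carry no expression values, so the sorted identity could not be checked against marker genes.

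The Sox13lo-only peaks were weak and narrow members of their list. Their median score, in the authors' own units, was 19.9, with quartiles of 12.4 and 30.8. The score has no stated scale and is compared here within the Sox13lo list alone. The median was 32.4 for Sox13lo peaks shared with Sox13hi cells alone, 31.8 for those shared with DP cells alone and 56.5 for those in all 3 lists. The median width was 250 bp for Sox13lo-only peaks, against 350 bp for peaks shared with Sox13hi, 300 bp for peaks shared with DP and 500 bp for peaks in all 3 lists. Of the Sox13lo-only peaks, 16.8 % scored above the median of the autosomal list (35.8) and 10.3 % were wider than its median (350 bp). The rule favours this order, since a narrow peak has less chance to share a base with another.

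**Figure D1:**
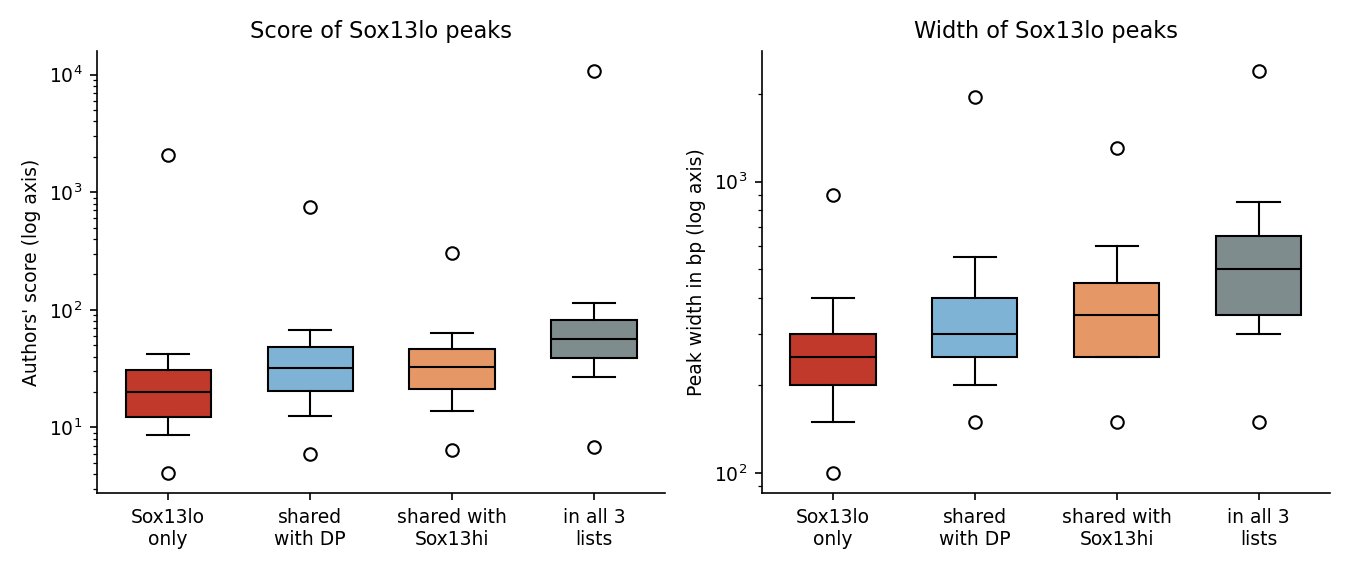
Authors' score (left) and width in bp (right) of autosomal Sox13lo peaks by overlap with the other lists, on log axes. Boxes show quartiles and median, whiskers the 10th and 90th percentiles, and circles the lowest and highest peak. Sox13lo-only peaks have the lowest median score (19.9) and width (250 bp) of the 4 kinds.

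The share of Sox13lo-only peaks rose in every step when the Sox13lo list was divided into 10 groups of equal size from best-scored to lowest-scored. In the best-scored group, 15 of 1039 peaks were Sox13lo-only, which is 1.44 %. In the fifth group the share was 20.6 %, and in the lowest-scored group 721 of 1040 peaks, or 69.3 %, were Sox13lo-only. Width showed the same order: 80.3 % of peaks up to 150 bp wide were Sox13lo-only, against 2.64 % of those over 500 bp. The 100 best-scored autosomal Sox13lo peaks included 1 Sox13lo-only peak, and the best-scored 1000 included 13.

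**Figure D2:**
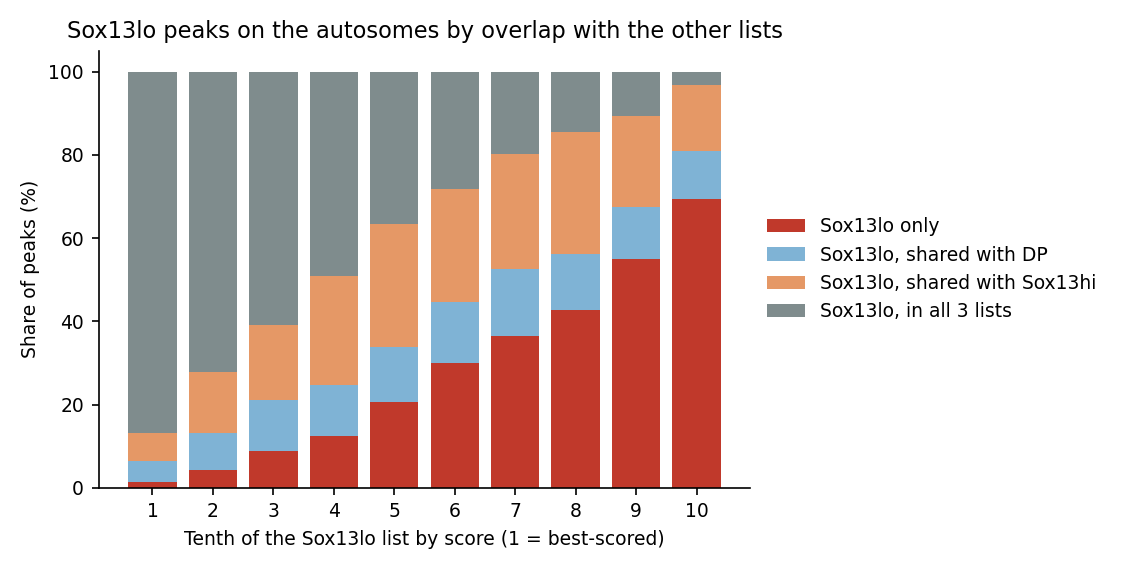
Autosomal Sox13lo peaks in 10 groups of equal size by score, from best-scored (1) to lowest-scored (10), with the share of each overlap class in percent. The red part, Sox13lo-only peaks, grows from 1.44 % to 69.3 % and the grey part, peaks in all 3 lists, shrinks.

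At the edge of overlap with a DP peak, peaks that touched and peaks that overlapped by the smallest step were alike in score. Among Sox13lo-only peaks, 25 touched a DP peak end to end without sharing a base, with a median score of 17.3, and 4 touched a Sox13hi peak (22.3). By comparison, 55 Sox13lo peaks overlapped a DP peak by 50 bp, the step of the position grid, with a median score of 17.2. Another 50 bp overlap, with a Sox13hi peak, was found for 13 Sox13lo peaks (19.2). The touching peaks overlapped neither list by the rule, whereas the sets with a 50 bp overlap were taken without regard to the remaining list. The sets set side by side thus differ in this, and the Sox13hi sets were small. Touching peaks included, 335 Sox13lo-only peaks lay within 1 kb of a Sox13hi peak and 433 within 1 kb of a DP peak, and 569, or 19.5 %, within 1 kb of at least 1 of them. The share of bases this close to the 40156 Sox13hi and 85669 DP peaks was not computed. These counts therefore cannot be told apart from the density of the lists. The neighbouring peaks were better scored than usual for their own lists, with 81.5 % of the Sox13hi and 65.8 % of the DP neighbours above the median of their list. At the other extreme, 14 Sox13lo-only peaks lay more than 50 kb from any peak of either list, a count likewise not set against the share of bases. The best scored of these 14, at chr4:130505751-130506100, scored 41.6, with the nearest Sox13hi peak 103300 bp and the nearest DP peak 55450 bp away.

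The best-scored Sox13lo-only peak stood far from all others. It lay at chr11:3093301-3093650 with a score of 2078, at rank 4 of the autosomal Sox13lo list, and scored 12.6 times as high as the next Sox13lo-only peak. The 1212 Sox13lo peaks of the same width, 350 bp, had a median score of 37.3, and the next score at that width was 745. It was the third peak of any list from the start of chromosome 11, with the nearest DP peak 37.95 kb and the nearest Sox13hi peak 69.9 kb away. It is given as a called peak, since its sequence was not examined for repeats.

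The other Sox13lo-only peaks of high score lay at very different distances from the common regions. Second was chr8:72854651-72855350, 700 bp wide with a score of 165, which lay 600 bp from a region found in all 3 lists and 500 bp from a weaker Sox13lo peak shared with DP (score 12.5). A peak of similar setting, chr7:53652901-53653550 with a score of 104, lay 550 bp from the common region chr7:53651651-53652350, whose own Sox13lo peak scored 83.9. In both cases the peak called in Sox13lo cells alone scored above the Sox13lo peak of the common region beside it, which was 65.1 on chromosome 8. The next best-scored Sox13lo-only peaks within 10 kb of a common region were chr2:178141901-178142350 (score 82.3, at 6100 bp), chr7:150650701-150651300 (score 79.3, at 4900 bp) and chr12:114426151-114426450 (score 75.7, at 650 bp). On chromosome 7 this second peak scored below the Sox13lo peak of its common region, which stood at 108, and the other pair scored above theirs, at 54.4 and 51.4.

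Most of the other well-scored peaks were farther away. The third, chr5:36021601-36022250, had a score of 136 and lay 124.9 kb from the nearest Sox13hi peak, 40.4 kb from the nearest DP peak and 279 kb from the nearest common region. The peaks chr8:19892451-19892900 (score 110) and chr5:37482401-37482850 (score 105) lay 356.6 and 71.3 kb from a common region. On chromosome 6, chr6:100521001-100521500 (score 104) was 133.05 kb from one. The remaining peaks among the 10 best scored were chr14:55732301-55732950, chr10:79138251-79138700 and chr13:34744051-34744700, all with scores close to 92, at 236.1, 37.45 and 222.75 kb from a common region. The first and last of these had another Sox13lo-only peak 0.85 and 0.2 kb away. Of these 10 peaks, 6 lay over 100 kb from a common region, 2 lay within 1 kb of one, and 4 had another Sox13lo peak within 1 kb. Among all 2924 Sox13lo-only peaks, 1499 lay over 100 kb from a common region and 6.74 % within 1 kb of one. Another Sox13lo peak lay within 1 kb of 15.7 % of the 2924.

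Common regions, 3956 on the autosomes, are stretches in which overlapping peaks of all 3 lists were merged. Sox13lo-only peaks lay at a median of 106 kb from the nearest of them, against 425.6 kb for Sox13hi-only and 312 kb for DP-only peaks. Within 10 kb of a common region lay 388 Sox13lo-only peaks, 13.3 % (95 % Wilson interval 12.1 to 14.5). The bases within that distance made up 3.19 % of the autosomes between the first and last peak. The share was 2.54 % (2.37 to 2.72) for the 31769 Sox13hi-only peaks, a difference of 10.7 percentage points (9.53 to 12.02). It was 3.25 % (3.13 to 3.38) for the 78760 DP-only peaks, a difference of 10.02 points (8.83 to 11.3). These intervals, like all below, cover counting error only. Peaks that lie close together are not independent.

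Equal numbers of peaks were also compared, by taking the 2924 best-scored peaks of each of the other classes. Of these, 2.46 % (1.96 to 3.09) of the Sox13hi-only and 3.59 % (2.98 to 4.33) of the DP-only peaks lay within 10 kb of a common region. Both were below the Sox13lo-only share by more than counting error, by 10.8 points (9.47 to 12.2) and 9.68 points (8.29 to 11.1). When the 3 lists themselves were limited to 10394 peaks each, 1980 common regions remained and the bases within 10 kb of them fell to 1.64 %. The share of Sox13lo-only peaks then fell to 6.91 % (6.21 to 7.68), against 1.16 % (0.897 to 1.49) for Sox13hi-only and 1.85 % (1.57 to 2.18) for DP-only peaks, differences of 5.76 points (4.98 to 6.57) and 5.06 points (4.29 to 5.88).

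The closeness to common regions was shared by the rest of the Sox13lo list. Of Sox13lo peaks that overlapped a Sox13hi peak alone, 13.0 % (11.7 to 14.4) lay within 10 kb of a common region, and of those that overlapped a DP peak alone, 11.8 % (10.1 to 13.7). Left out here were 1 and 27 peaks that lay inside a merged common region, which a Sox13lo-only peak cannot do. With them the shares were 13.0 and 13.7 %, and the differences 0.25 points (-1.62 to 2.10) and -0.45 points (-2.80 to 1.75). Without them the differences from the Sox13lo-only share were 0.29 points (-1.58 to 2.13) and 1.46 points (-0.81 to 3.58), so either way none was detectable beyond counting error at this distance. Within 500 kb the share of Sox13lo-only peaks was below that of peaks shared with Sox13hi (84.6 against 88.8 %, a difference of -4.22 points, -6.06 to -2.36). Against peaks shared with DP, those inside common regions left out, it was higher by 4.27 points (0.94 to 7.58) within 100 kb and 4.20 (0.98 to 7.45) within 200 kb. Within 500 kb that difference was 0.65 points (-1.72 to 3.16). Within 1 kb it was 2.14 points (0.57 to 3.56), but 0.08 (-1.67 to 1.66) with the inside peaks counted. The share within 10 kb did not order by score: in 4 groups of equal size of the Sox13lo list, from best-scored to lowest-scored, the share among Sox13lo-only peaks was 14.0, 12.9, 13.9 and 12.9 %.

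Distance from the common regions brought out 2 scales. Of the 388 peaks within 10 kb, 197 lay within the first 1 kb, 6.74 % (5.88 to 7.70) of Sox13lo-only peaks on 0.319 % of the bases outside common regions, a ratio of 21.1. From 1 to 2 kb the ratio was 3.14 (2.19 to 4.50), from 5 to 10 kb 2.20 (1.81 to 2.67) and from 50 to 100 kb still 1.67 (1.54 to 1.81). Only past 200 kb did it fall under 1, at 0.813 (0.754 to 0.874) from 200 to 500 kb. In the first 1 kb the ratio was 0.828 (0.669 to 1.02) for Sox13hi-only and 1.05 (0.931 to 1.18) for DP-only peaks. The other Sox13lo peaks had high ratios there too, 25.2 (21.9 to 28.9) when shared with Sox13hi alone and 14.4 (11.1 to 18.5) when shared with DP alone.

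The peaks in the first 1 kb sat at the flanks of Sox13lo peaks of the common regions. For 188 of the 197, the nearest other Sox13lo peak was one found in all 3 lists, and the median gap to the common region was 250 bp. In 19 of those 188 pairs the Sox13lo-only peak was the better scored. Close pairs were a feature of the Sox13lo list as a whole: 16.9 % of its peaks had another peak of the list within 1 kb, against 7.88 % in the Sox13hi and 7.08 % in the DP list. How the peak caller divided wide enriched stretches in each list was not tested. When peaks within 1 kb of a Sox13hi or DP peak were also taken as shared, 2355 Sox13lo-only peaks remained and 7.35 % of them (6.36 to 8.47) lay within 10 kb of a common region.

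**Figure D3:**
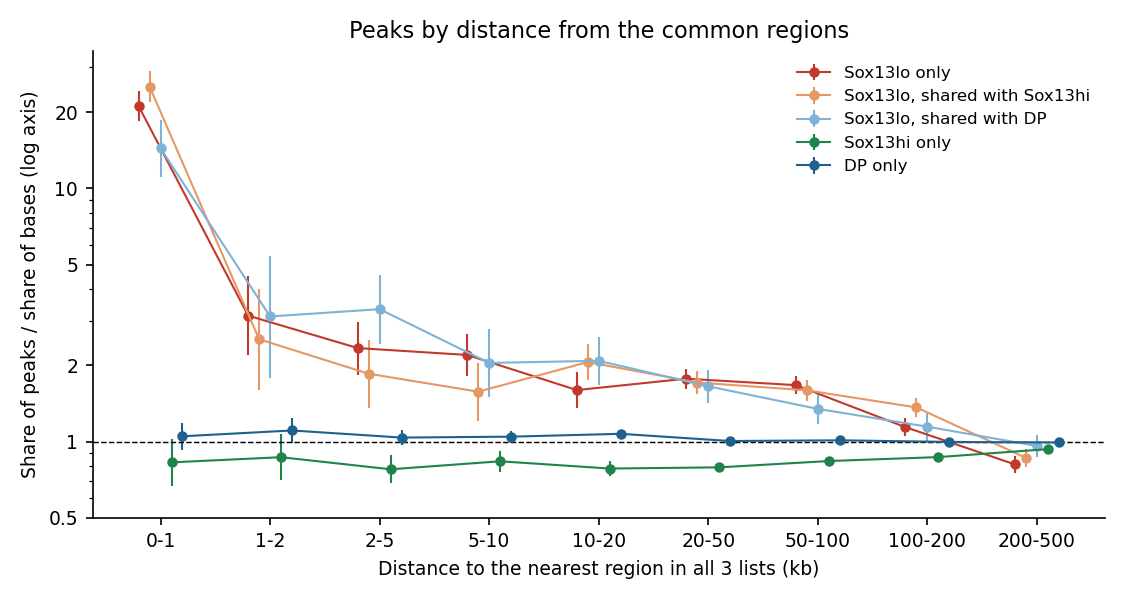
Share of peaks in each distance band outside regions found in all 3 lists, divided by the share of bases in that band (log axis; bars are 95 % Wilson intervals; dashed line at 1). Sox13lo-only peaks start at 21.1 in the first 1 kb and stay above 1 up to 200 kb together with the other Sox13lo peaks, while DP-only peaks stay close to 1 and Sox13hi-only peaks mostly below it.

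Over wider windows, Sox13lo-only peaks were most numerous where common regions were dense. The autosomes were divided into 2424 windows of 1 Mb, of which 1042 held no Sox13lo-only peak. The 917 windows without a common region held 0.510 Sox13lo-only peaks each on average, the 381 windows with 2 common regions 1.34, and the 134 windows with 6 or more 3.82. Relative to the mean of all windows this was a rise from 0.423 to 3.17. Over the same windows Sox13hi-only peaks fell from 1.20 to 0.636 times their mean, and DP-only peaks stayed between 0.990 and 1.05 times theirs. Sox13lo peaks shared with Sox13hi or with DP alone rose as well, to 3.42 and 3.11 times their means.

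Gene positions on mm9 were not used here, so gene density could be set beside the peaks only by chromosome. The number of protein-coding genes on each autosome came from the RefSeq table of GRCm38, 20665 genes in all, and was divided by the mm9 length of the chromosome. Relative density is the number of peaks per Mb of a chromosome over that of all 19 autosomes. Chromosome 11, with 13.2 genes per Mb, had the highest relative density of Sox13lo-only peaks, 1.39 with 201 peaks. Chromosome 7, with 13.3 genes per Mb, stood at 1.25 and chromosome 19 (11.5 genes per Mb) also at 1.25. At the low end, chromosome 14 had 6.80 genes per Mb and a relative density of 0.736, chromosome 3 had 6.16 and 0.758, and chromosome 1 had 6.11 and 0.772. Chromosomes 5 and 8 were apart from this order. Chromosome 5 had the second-highest relative density, 1.34 with 242 peaks, at 8.32 genes per Mb, close to the mean of 8.36, and chromosome 8 stood at 1.24 with 193 peaks at 7.92 genes per Mb.

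Over the 19 autosomes, which are not independent replicates and differ also in base composition and in gaps of the assembly, Pearson's r between gene density and Sox13lo-only peak density was 0.78 and Spearman's rho 0.81. Without chromosomes 7 and 11, the farthest from the median gene density, r was 0.71. Olfactory and vomeronasal receptor genes form large clusters, and without them r was 0.85. For the common regions r was 0.79, and for Sox13lo peaks shared with Sox13hi alone and with DP alone it was 0.81 and 0.86. For Sox13hi-only peaks r was -0.74 and rho -0.64, with r at -0.54 without chromosomes 7 and 11. Among the best-scored 2924 Sox13hi-only peaks r was -0.70 and rho -0.36, with r at -0.38 without chromosomes 7 and 11. For DP-only peaks r was -0.17 and rho 0.03. The part of the Sox13lo list made up of Sox13lo-only peaks ran from 24.1 % on chromosome 2 (21.3 to 27.0) to 32.0 % on chromosome 5 (28.8 to 35.4).

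**Figure D4:**
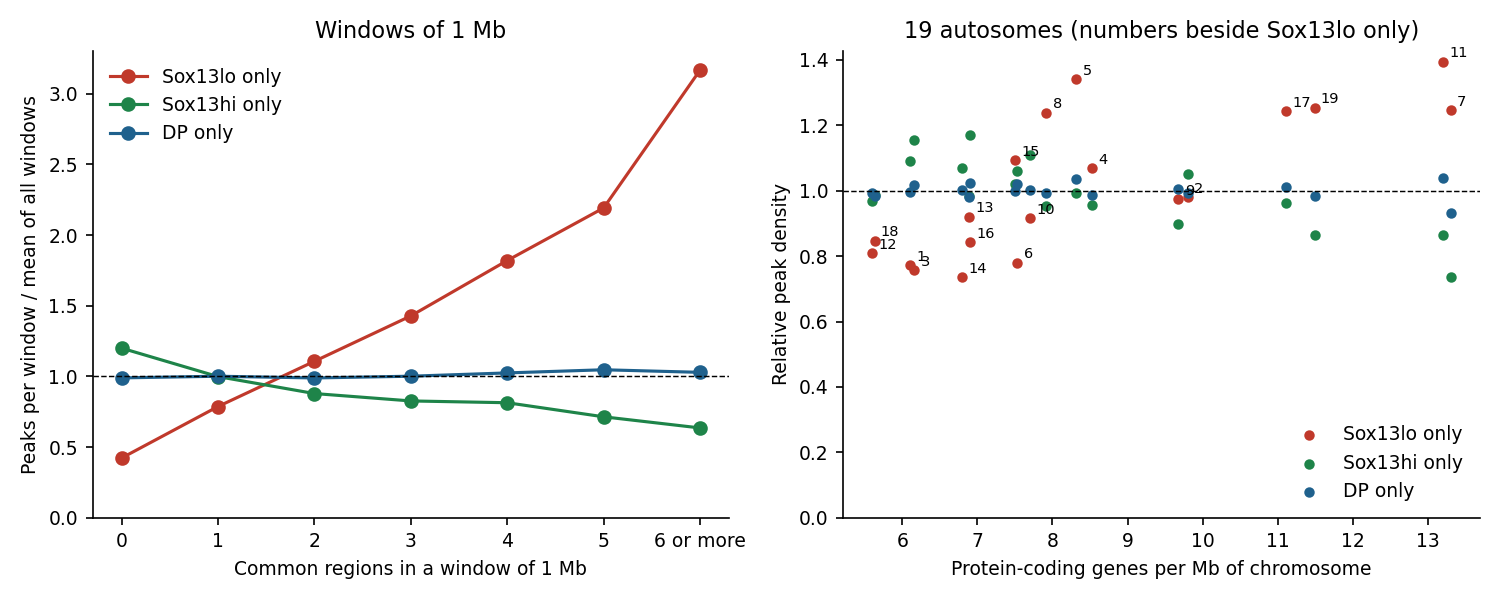
Left: mean number of peaks in windows of 1 Mb, relative to all 2424 windows, by the number of common regions in the window. Right: relative peak density against protein-coding genes per Mb, 1 point per autosome and class, with chromosome numbers beside the Sox13lo-only points. Sox13lo-only peaks rise from 0.423 to 3.17 on the left, and on the right from 0.736 on chromosome 14 to 1.39 on chromosome 11.

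Sox13lo-only peaks were mostly single with respect to each other. Joined over gaps of at most 50 kb, they formed 2090 stretches of 1 peak, 293 of 2, 54 of 3 and 19 of 4 or more. Another Sox13lo-only peak lay within 50 kb of 28.5 % of them, and another Sox13lo peak of any class within 50 kb of 58.4 %. The nearest Sox13lo neighbour of a Sox13lo-only peak was another Sox13lo-only peak in 30.0 % of cases, close to the 28.1 % that these peaks make up of the list. It was a peak of all 3 lists in 38.2 %, equal to their part of the list. Neighbours of a Sox13lo-only peak thus had nearly the make-up of the whole list.

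The densest windows lay on chromosomes 10, 8 and 7. The window from 79 to 80 Mb of chromosome 10 held 17 Sox13lo-only peaks beside 16 common regions, and the next window, from 80 to 81 Mb, held 14 beside 16. On chromosome 8 the window from 73 to 74 Mb held 16 Sox13lo-only peaks beside 7 common regions, and those on either side held 10 each. Sox13lo peaks shared with Sox13hi alone numbered 12, 15 and 15 in the windows at 79, 80 and 73 Mb. Those shared with DP alone numbered 2, 10 and 3. Means over all windows were 1.21 Sox13lo-only peaks, 0.929 shared with Sox13hi alone, 0.514 shared with DP alone and 1.63 common regions. These windows were thus dense in the other Sox13lo peaks too. The largest stretch, chosen after its values were seen, ran over 128.5 kb at chr10:79138251-79266750 with 8 Sox13lo-only peaks, scored from 14.1 to 92.0. At its middle lay a common region. Its peak in the Sox13lo list, chr10:79197701-79198900, had a score of 245 and rank 34 there, and its DP peak had rank 39 in the autosomal DP list. In the autosomal Sox13hi list of 40156 peaks, those of the same region had ranks 7680, 16756 and 23835. Their scores were 13.7, 8.80 and 6.79, against a median of 7.90 for that list. To the right of this common region, 5 of the 8 Sox13lo-only peaks fell between chr10:79209151-79209400 and chr10:79224751-79225050, where neither of the other lists had a peak. With those of the common region included, the stretch held 6 Sox13hi and 4 DP peaks. The next stretches were chr7:30023401-30117400 with 7 and chr8:73360951-73438850 with 6 Sox13lo-only peaks.

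**Figure D5:**
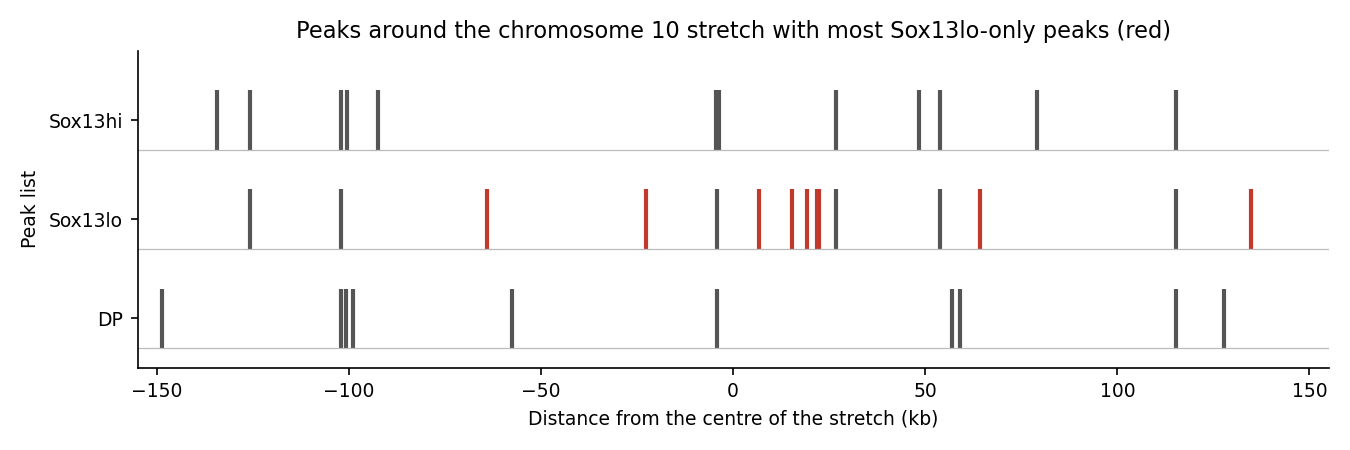
Positions of peaks in the Sox13hi, Sox13lo and DP lists within 150 kb of the centre of the chromosome 10 stretch, as distance in kb; each tick is 1 peak and its height carries no value. Of the Sox13lo-only peaks (red), 8 belong to the stretch, with 5 close together just right of the common peak near the centre.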

How the data were processed

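TCF1 chromatin immunoprecipitation and sequencing gave 1 peak list each for Sox13hi γδ, Sox13lo γδ and DP thymocytes. The authors deposited lists of chromosome, start, end, name, score and strand; the score is their own value per peak on a scale not stated, and per the submitters' processing notes the build is mm9. Not given in the sources used here are the aligner, the peak caller, its threshold, whether the input entered the calls, and the read depth. A list was treated as the calls of its 1 library. Ends name the last base, so printed positions are 1-based and inclusive. All positions lay within the mm9 chromosome lengths held in GenomeInfoDb 1.38.1.

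Overlap, distance, merging and Wilson intervals were computed with scipy 1.17.1, pandas 2.3.3 and numpy 2.4.6 under Python 3.11.15, after the steps were tested on simulated data. Differences of shares have Newcombe intervals. Ranks are within the autosomal list. Plots used matplotlib 3.10.9. The Sox13lo-only peaks, the gene lists and the alternatives were chosen with earlier results of these data known. The rule for named items was the 10 best-scored Sox13lo-only peaks and the best-scored ones within 10 kb of a common region; other peaks named were chosen after their values were seen. Gene and promoter tables were on GRCm38, another build, and positions were not converted. Nearby genes, promoter share, local gene density, TCF motifs and peak sequences were therefore not analysed here.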

Additional observations from a re-analysis of the deposited data

How the results depend on the processing

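The number of Sox13lo-only peaks was 3476 when only an overlap of 50 % of both peaks counted as shared, 2355 when peaks within 1 kb also did, and 2749 with all peaks resized to 500 bp. Among the better-scored 50 % of the Sox13lo list it was 495; fewer peaks enter, and a smaller part of the better-scored ones is Sox13lo-only. With the 3 lists limited to the best-scored 10394 autosomal peaks each, which was added with the data known, it was 4558, since fewer peaks can be overlapped. The share within a given distance of a common region was 9.92 % at 5 kb and 31.6 % at 50 kb by construction. At 10 kb it was 7.35 % when peaks within 1 kb also counted as shared, which removes the flanking peaks, and 6.91 % with lists of equal length, where 1980 common regions remained. It was 13.1 % in the better-scored 50 % of the list and 13.3 % without the best-scored peak. The correlation with gene density, added with its alternatives once the data were known, ranged from 0.62 in the better-scored 50 % to 0.86 with lists of equal length. The fixed alternatives for promoters, start sites, motifs and listed genes were not run, for lack of positions on mm9. No paired analysis was possible because there was a single library of each kind. With depth not known, a Sox13lo-only peak may have a counterpart below the lowest score of another list.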
